A study of Rattus norvegicus with 21 samples.

Results

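Transforming growth factor beta (TGF-beta) signaling was followed in the left ventricle of aging rats through 10 genes: the ligands Tgfb1, Tgfb2 and Tgfb3, the receptors Tgfbr1, Tgfbr2 and Tgfbr3, the receptor-regulated Smads Smad2 and Smad3, and the inhibitory Smads Smad6 and Smad7. They were taken by symbol from the 26597 genes of the deposited tables, with no use of their values. Of the 10, 9 were found under their exact symbol, and Tgfbr1 is split over 2 rows, Tgfbr1_1 and Tgfbr1_2. Tgfbr1_1 was used for Tgfbr1, since its 246 to 744 counts per library stood against 0 to 24 counts for Tgfbr1_2.

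All rats were of the F-344/Brown Norway strain, and the RNA came from whole left ventricle. The groups used here were 24-month-old rats given relaxin (RLX) at 400 µg/kg/day, 24-month-old controls (CTRL) given the vehicle sodium acetate, and 9-month-old controls given the same vehicle, with 14 days of delivery from osmotic mini pumps under the skin. Each group held 4 females or 3 males, every rat being a separate library, which gives 21 libraries in 6 groups. RLX-treated 9-month-old rats were not analysed here, so an RLX effect is known at 24 months alone, and the female and male libraries were loaded on the sequencer at different concentrations, so that sex and run cannot be told apart.

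As background, TGF-beta ligands are secreted in a latent complex held in the extracellular matrix. Once freed, a ligand binds the type II receptor (Tgfbr2), which phosphorylates the type I receptor (Tgfbr1), and the type I receptor phosphorylates Smad2 and Smad3, which enter the nucleus with Smad4. Tgfbr3 (betaglycan) is a co-receptor that presents ligand, above all Tgfb2, while Smad6 and Smad7 block the receptors and are themselves induced by signaling. In the heart the pathway is best known for turning fibroblasts into matrix-producing myofibroblasts, and relaxin is known from other work for opposing fibrosis.

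Total counts per library ranged from 11997512 to 19027947. Cardiomyocyte markers (Myh6, Tnnt2, Actc1, Myl2, Ryr2, Tnni3) summed to between 21633 and 33739 CPM in every library, where CPM is the count scaled to a common library size by TMM factors over the 21 libraries. One library stood apart for blood: red cell markers reached 11234 CPM in the female 24-month RLX rat 4, against a median of 9.74 CPM over its group, and the next highest was 1414 CPM in the female 24-month CTRL rat 6. Another stood apart for the genes described here, the male 24-month CTRL rat 12, whose Tgfbr2 and Tgfbr3 were the lowest and whose Tgfb1 and Tgfbr1 were the highest of all 21 libraries in CPM. That library also had the lowest TMM factor (0.780), and in RPKM, which carries no such factor, its Tgfbr2 and Tgfbr3 were again the lowest but its Tgfb1 and Tgfbr1 were not the highest. Where leaving out one of these libraries ended a call or moved a fold change by much, the value without it is given below. For some genes only the range over single rats left out is given.

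The coordinates below are those of the deposited tables, whose genome build the sources used here do not name. Tgfb1 lies at chromosome 1, 83742151 to 83758471, Tgfb2 at chromosome 13, 109681282 to 109791576, and Tgfb3 at chromosome 6, 119222052 to 119243828. Tgfbr1_1 lies at chromosome 5, 67575722 to 67639194, Tgfbr2 at chromosome 8, 123585765 to 123671209, and Tgfbr3 at chromosome 14, 3509601 to 3683814. Smad3 (chromosome 8, 68274137 to 68397727) and Smad6 (chromosome 8, 68608917 to 68676631) lie on one chromosome, as do Smad7 (chromosome 18, 70530559 to 70558925) and Smad2 (chromosome 18, 71672969 to 71734982). The second Tgfbr1 row, Tgfbr1_2, is placed at chromosome 5, 69079544 to 69096929, outside Tgfbr1_1.

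Levels of different genes were compared per length, as the RPKM values that the authors deposited. Tgfb1 averaged 18.4 ± 5.65 RPKM and Tgfb3 15.3 ± 3.87 RPKM over all 21 libraries (SD), followed by Tgfbr2 at 13.4 ± 3.77 RPKM. Smad2 averaged 6.10 ± 0.859 RPKM, Tgfbr1_1 4.66 ± 1.20 RPKM and Tgfbr3 4.61 ± 1.04 RPKM. Smad7 averaged 2.86 ± 0.607 RPKM, Tgfb2 2.77 ± 0.827 RPKM, Smad6 1.38 ± 0.816 RPKM and Smad3 1.38 ± 0.392 RPKM. Neighbors in this order were not always apart: Tgfb1 exceeded Tgfb3 in 13 of 21 libraries, Tgfb3 exceeded Tgfbr2 in 15, Tgfbr1_1 exceeded Tgfbr3 in 10, Smad7 exceeded Tgfb2 in 11 and Smad6 exceeded Smad3 in 9. The steps between these sets were clearer, since Tgfbr2 exceeded Smad2 in 20 libraries, Smad2 exceeded Tgfbr1_1 in 19, Tgfbr3 exceeded Smad7 in 20 and Tgfb2 exceeded Smad6 in 19. Smad6 was also the gene with the fewest reads, 5 to 73 counts per library, against 410 to 1076 counts for Tgfb3.

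**Figure D1:**
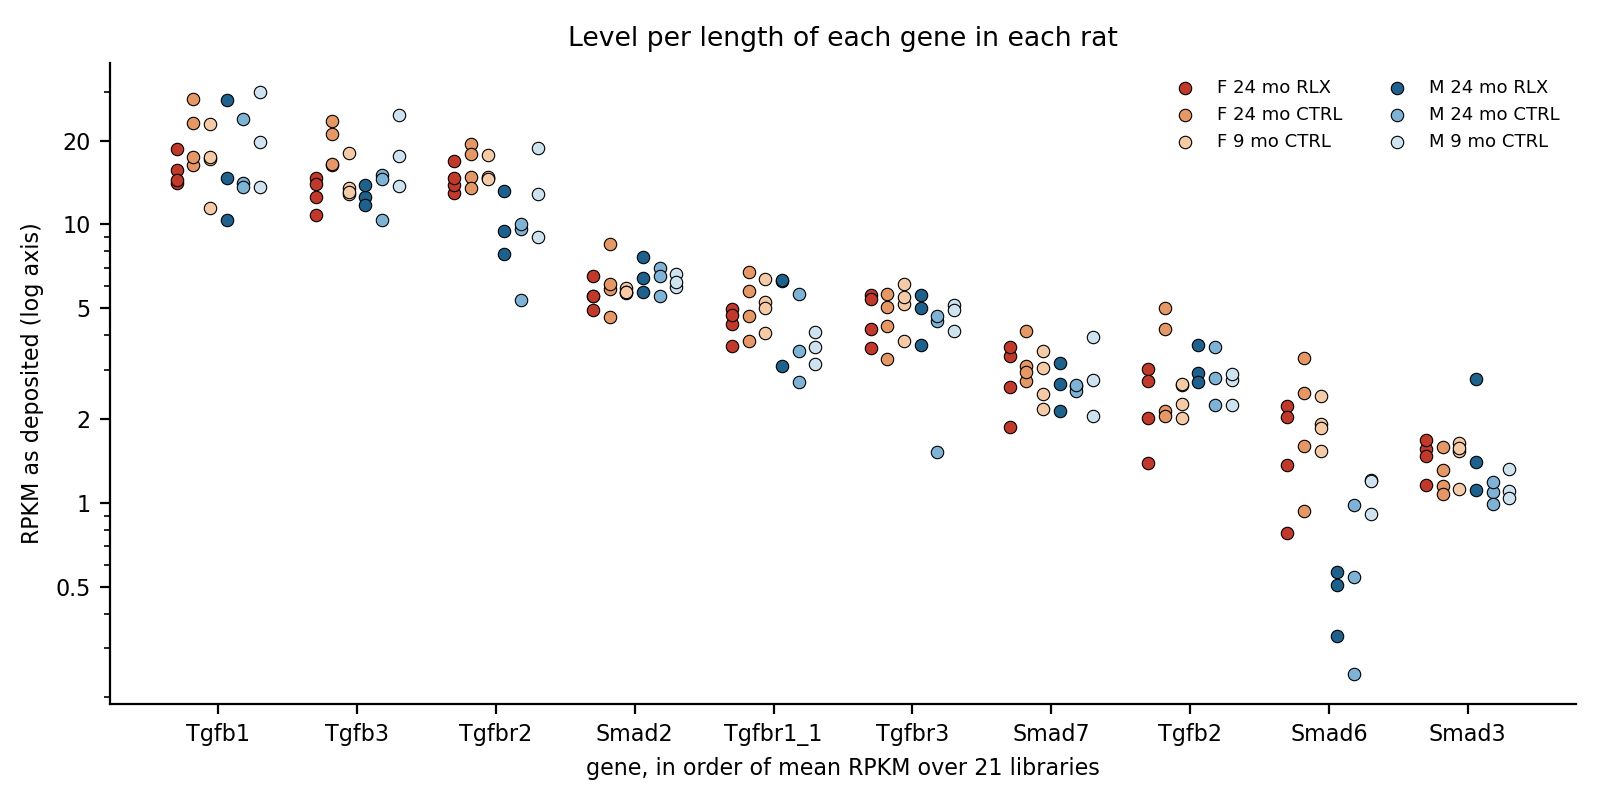
RPKM of the 10 genes in each of the 21 rats on a log axis, genes ordered by their mean. Tgfb1, Tgfb3 and Tgfbr2 form the top of the order with means of 13.4 to 18.4 RPKM, and the lowest points are those of Smad6 in 24-month males.

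The comparisons were 4 in number, aging (24-month CTRL against 9-month CTRL) and RLX (24-month RLX against 24-month CTRL) in each sex. Each was tested across all genes with edgeR's quasi-likelihood test, with Benjamini-Hochberg adjustment over 12220 to 12696 genes, and a gene passed at an adjusted p of at most 0.05. All 10 genes were tested in every comparison. The aging and RLX comparisons of a sex share the 24-month CTRL rats, so a high or low value in those rats moves both in opposite directions. In bulk tissue, fewer cells of a type and less RNA per cell cannot be told apart.

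**Figure D2:**
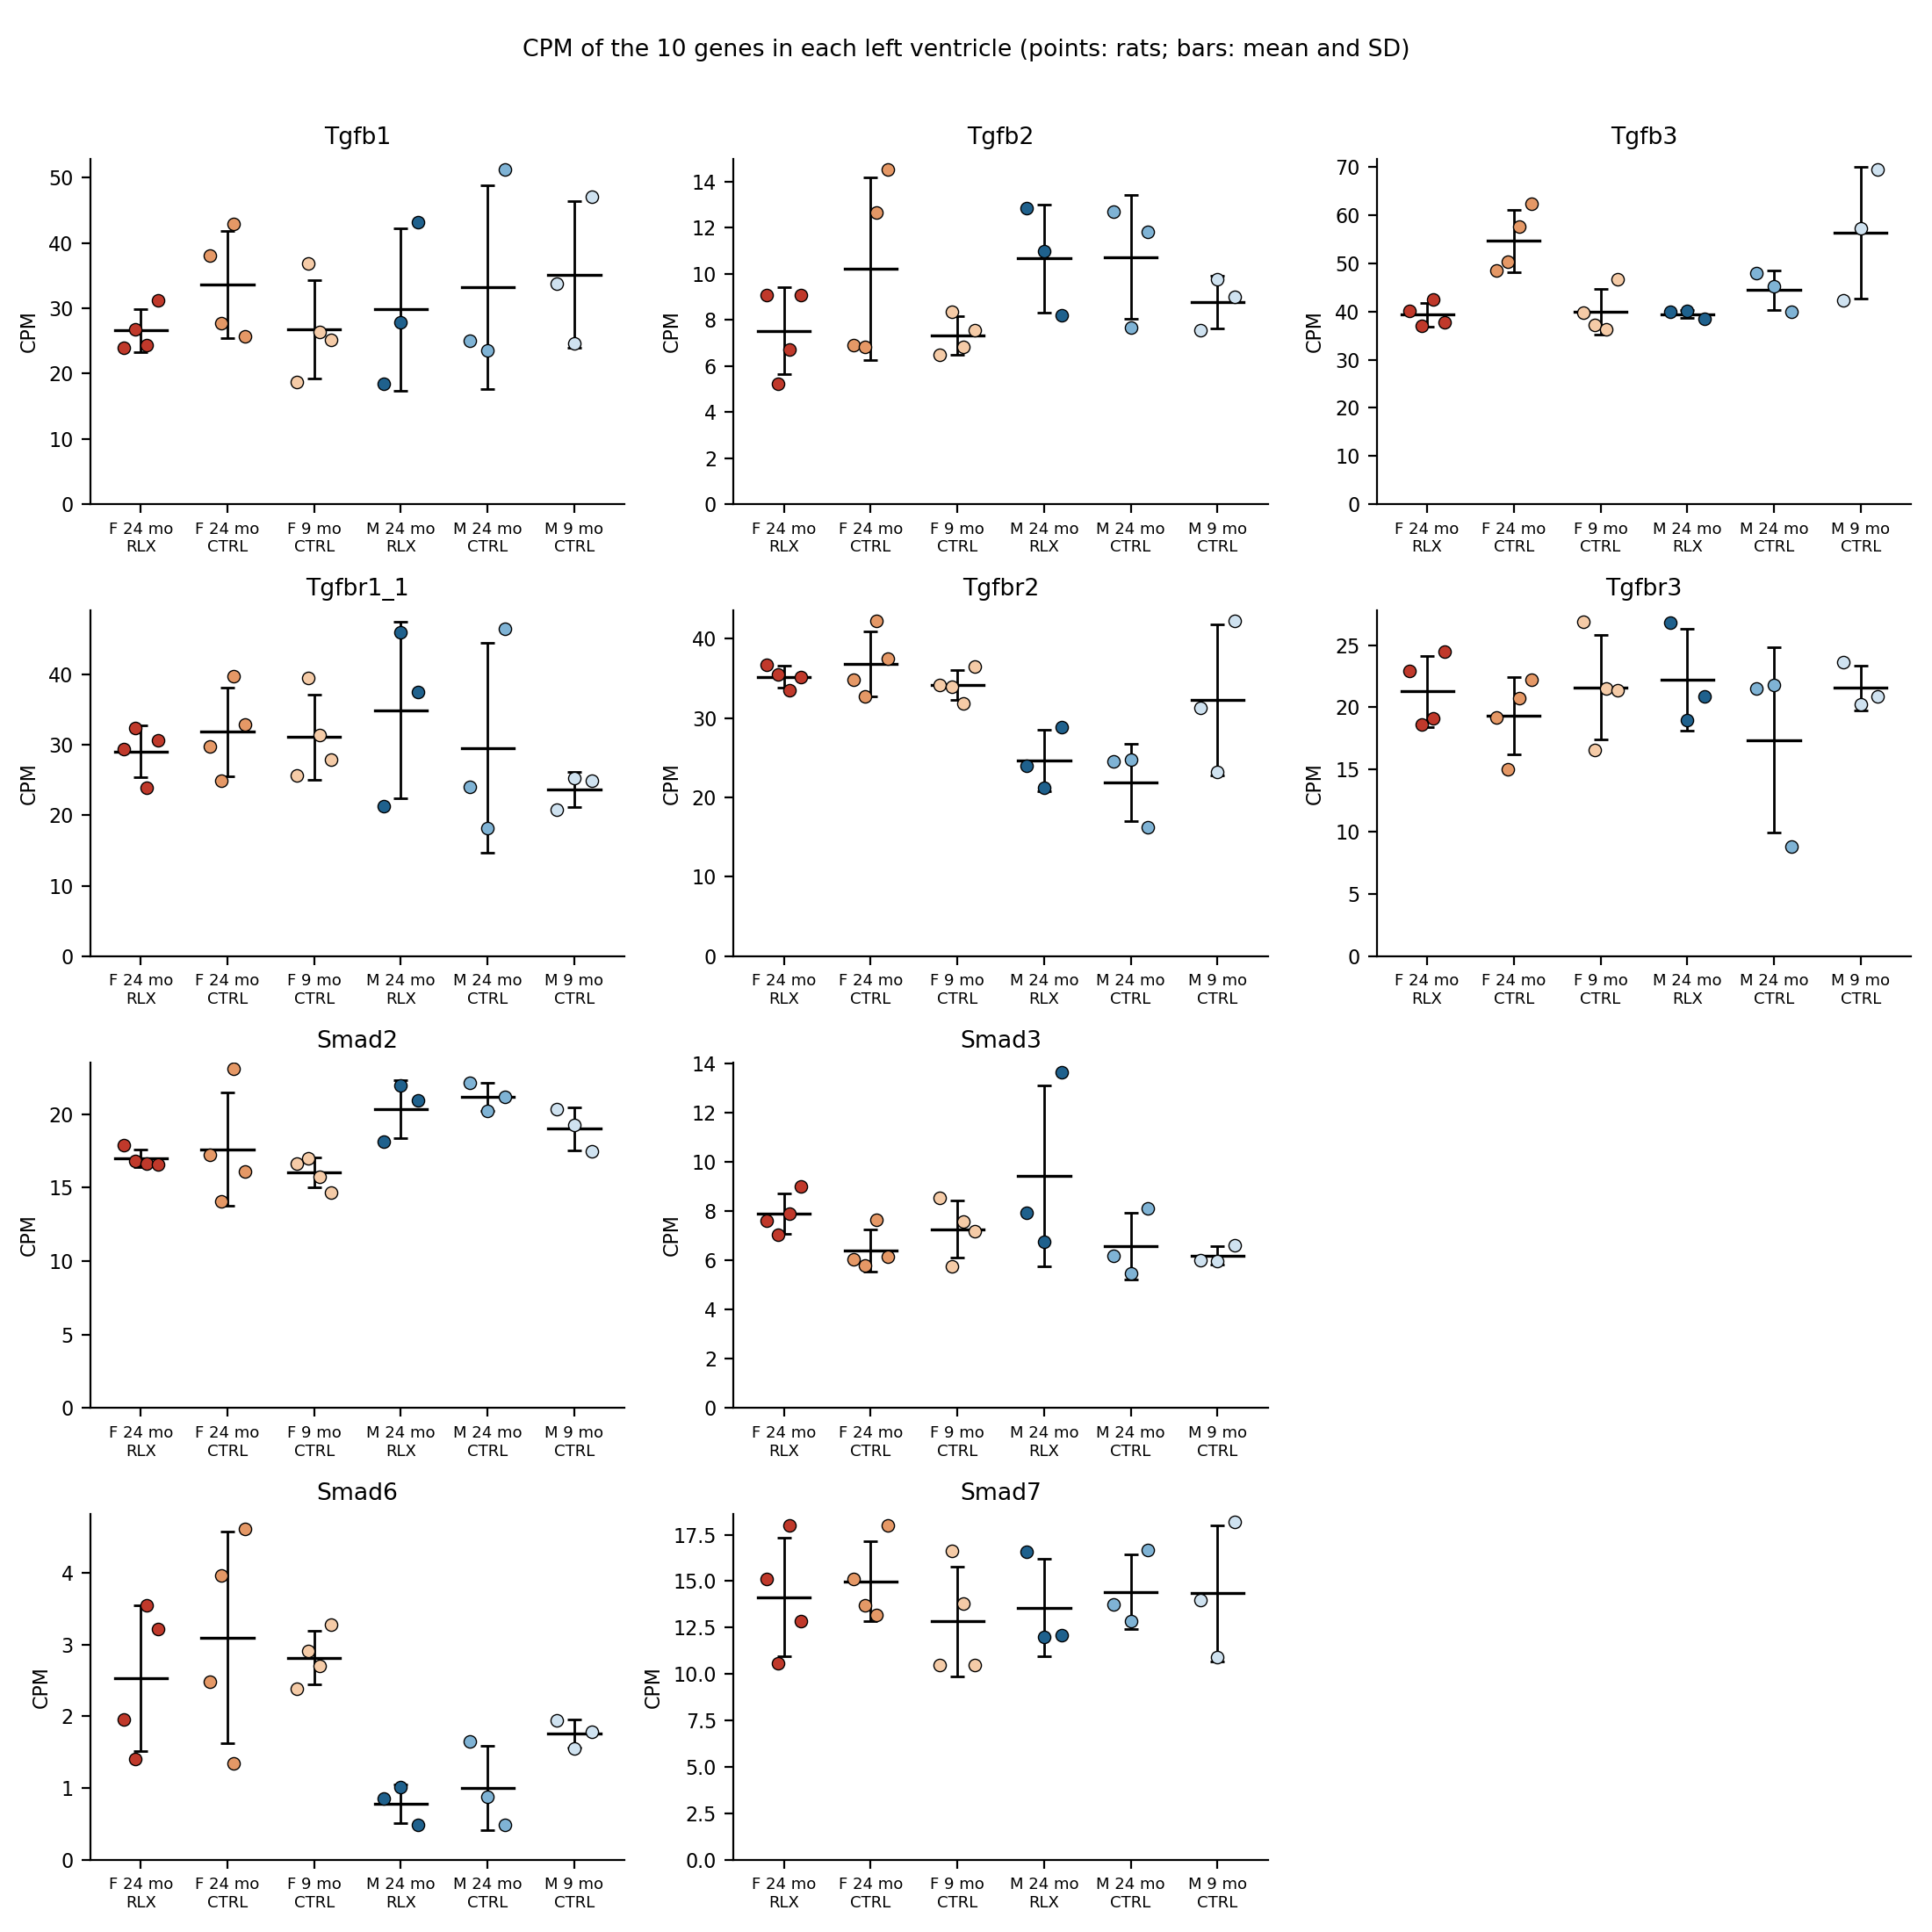
CPM of each gene in each rat for the 6 groups (F, females, 4 rats per group, M, males, 3 rats per group), with the group mean and SD. The Tgfb3 points of the 24-month CTRL females (48.4 to 62.3 CPM) lie above those of both other female groups, and Smad6 is under 2 CPM in every male.

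In aging females, Tgfb3 was the single gene of the 10 that passed the test. It rose to 54.6 ± 6.47 CPM in 24-month CTRL females, against 39.9 ± 4.74 CPM in 9-month CTRL females (SD, n = 4 each). Tgfb1 and Tgfb2 had higher means at 24 months as well, by fitted folds of 1.26 and 1.41, but with wider spread, and none of the 3 receptors and 4 Smads passed the test. So 1 of 10 genes passed, against 5.35% of the 12696 genes tested, and the same gene was the only one of the 10 at an unadjusted p under 0.05 (21.2% of all genes) and the only one whose groups did not overlap (14.1% of all genes).

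Tgfb3, the ligand also known for its part in palate fusion, stood at 48.4, 50.3, 57.6 and 62.3 CPM in the 24-month CTRL females, against 39.7, 37.1, 36.3 and 46.7 CPM in the 9-month CTRL females. Every aged rat exceeded every young rat in CPM, though the highest young rat came close to the lowest aged one. In RPKM the groups overlapped, at 16.3 to 23.6 RPKM in 24-month CTRL females, against 12.8 to 18.1 RPKM in 9-month CTRL females. The test gave a log2 fold change of 0.46 ± 0.11 (SE) at an adjusted p of 0.0362, a fold change of 1.37, which is under the fold of 1.5 that the study's own limits ask for. The call rested on nearly all rats: it was lost when either the 24-month CTRL rat 4, 5 or 6 or the 9-month CTRL rat 1, 3 or 4 was left out, with log2 fold changes of 0.39 to 0.50 and adjusted p of 0.0502 to 0.124. Without the aged rat with the higher red cell signal (rat 6) the log2 fold change was 0.39.

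Markers of other cell types moved in the same comparison, in which 5.35% of the 12696 genes tested were called. The 6 fibroblast markers (Pdgfra, Dcn, Lum, Col1a1, Tcf21, Dpt) summed to 2941 to 3912 CPM in 24-month CTRL females, against 1889 to 2379 CPM in 9-month CTRL females, and 3 of the 6 were called higher. Dcn alone, with means of 2103 and 1294 CPM in these groups, was the larger part of this sum in every library. All 6 had positive fold changes. All 6 macrophage markers measured were called higher, with sums of 593 to 740 CPM in 24-month CTRL females, against 296 to 404 CPM in 9-month CTRL females. Of 5 T cell markers, 4 were called higher, with sums of 26.5 to 41.7 CPM at 24 months, against 15.03 to 20.1 CPM at 9 months. Cardiomyocyte markers summed to 21633 to 26239 CPM at 24 months, against 28357 to 33739 CPM at 9 months, with 1 of 6 called lower. Platelet markers summed to 6.53 to 12.1 CPM at 24 months, against 4.14 to 5.14 CPM at 9 months, and the 1 of 4 that could be tested was called higher. Red cell markers summed to 9.67 to 1414 CPM at 24 months, against 5.70 to 7.03 CPM at 9 months, with 0 of the 4 tested called. Ppbp among the platelet markers was at 0 in both groups and Alas2 among the red cell markers at 9 months, and no marker of the other 4 lists was at 0. Their part in the Tgfb3 difference was not tested.

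The other ligands were more uneven between rats. Tgfb1, the ligand most often tied to cardiac fibrosis, stood at 38.0, 27.7, 42.9 and 25.8 CPM in 24-month CTRL females, against 18.8, 36.9, 26.4 and 25.1 CPM in 9-month CTRL females. The groups overlapped, with a log2 fold change of 0.33 ± 0.22 (SE) at an adjusted p of 0.42. Tgfb2, the ligand that depends most on Tgfbr3, had 6.92, 6.81, 12.6 and 14.5 CPM in 24-month CTRL females, against 6.49, 8.36, 6.83 and 7.55 CPM in 9-month CTRL females. Here 2 of the 4 aged rats were above every young rat and the other 2 lay within the young range, and the test gave a log2 fold change of 0.49 ± 0.24 (SE) at an adjusted p of 0.269. Without the aged rat 6 it was 0.28.

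Receptor levels differed little with age in females. Tgfbr1_1 averaged 31.9 ± 6.25 CPM in 24-month CTRL females and 31.1 ± 6.06 CPM in 9-month CTRL females, with a log2 fold change of 0.040 ± 0.16 (SE) at an adjusted p of 0.912. Tgfbr2 averaged 36.8 ± 4.11 CPM in 24-month CTRL females and 34.1 ± 1.89 CPM in 9-month CTRL females, with a log2 fold change of 0.11 ± 0.096 (SE) at an adjusted p of 0.537. Tgfbr3 averaged 19.3 ± 3.10 CPM in 24-month CTRL females and 21.6 ± 4.20 CPM in 9-month CTRL females, with a log2 fold change of -0.16 ± 0.16 (SE) at an adjusted p of 0.605. The groups overlapped for all 3 receptors. Summing both Tgfbr1 rows, an alternative chosen after seeing the data, left the log2 fold change of Tgfbr1 at 0.037.

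The Smads, which carry the signal or block it, did not pass either. Smad2 had a log2 fold change of 0.14 ± 0.14 (SE) at an adjusted p of 0.608 and Smad3 had a log2 fold change of -0.18 ± 0.16 (SE) at an adjusted p of 0.556, with values of 14.0 to 23.1 and 5.77 to 7.65 CPM in 24-month CTRL females, against 14.7 to 17.0 and 5.76 to 8.54 CPM in 9-month CTRL females. Smad6, the inhibitory Smad that acts mainly on the BMP branch, had 2.48, 3.96, 1.34 and 4.61 CPM in 24-month CTRL females, against 2.38, 2.91, 2.70 and 3.28 CPM in 9-month CTRL females, so the aged rats spread to both sides of the young ones. Smad7, the inhibitory Smad of the TGF-beta branch, had 15.1, 13.7, 13.2 and 18.0 CPM in 24-month CTRL females, against 10.5, 16.6, 13.8 and 10.5 CPM in 9-month CTRL females. The log2 fold changes were 0.13 (SE 0.32) for Smad6 and 0.23 (SE 0.16) for Smad7, and -0.13 and 0.13 without the aged rat 6.

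Around these 10 genes, 94 further genes of the pathway in 7 lists were looked up, of which 83 were tested in female aging. In that comparison 5 of the 83 passed the test, each of them higher at 24 months, against 5.35% of all genes, so the share called in the pathway was near the background. Of the 8 co-receptors, decoys and extracellular binders tested, 2 were called, Dcn (decorin) and Bgn (biglycan), small proteoglycans that bind TGF-beta in the matrix. Bgn had 375, 325, 688 and 715 CPM in 24-month CTRL females, against 189.9, 202, 194 and 238 CPM in 9-month CTRL females, and its log2 fold change was 1.36 ± 0.26 (SE) at an adjusted p of 0.0270. The 2 lowest aged rats were still above all young rats. Dcn, also one of the fibroblast markers, had a log2 fold change of 0.71 ± 0.13 (SE) at an adjusted p of 0.0135. Of 27 genes known to respond to TGF-beta, 3 were called, and their median log2 fold change was 0.20, against -0.0005 for all genes tested.

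Postn (periostin), a matrix protein made by activated fibroblasts, stood at 94.5, 70.6, 139 and 134 CPM in 24-month CTRL females, against 30.0, 31.0, 20.9 and 38.5 CPM in 9-month CTRL females, a log2 fold change of 1.87 ± 0.25 (SE) at an adjusted p of 0.00903. Tnc (tenascin C), a matrix protein of remodeling tissue, stood at 2.42, 1.11, 3.75 and 3.41 CPM in 24-month CTRL females, against 0.541, 0.620, 0.719 and 0.317 CPM in 9-month CTRL females, a log2 fold change of 2.30 ± 0.39 (SE) at an adjusted p of 0.0105. Timp1, an inhibitor of matrix metalloproteinases, stood at 61.2, 44.9, 59.0 and 54.7 CPM in 24-month CTRL females, against 22.4, 37.1, 30.0 and 38.4 CPM in 9-month CTRL females, a log2 fold change of 0.79 ± 0.16 (SE) at an adjusted p of 0.0231. The groups of all 3 did not overlap, but these 3 were named because they had the smallest p of their list. Over that list, 5 of 27 genes had groups that did not overlap, against 14.1% of all genes. The Postn and Tnc calls held with any 1 rat left out, whereas those of Dcn, Bgn and Timp1 were lost without 1 or more single rats, with adjusted p of up to 0.0532, 0.103 and 0.0848 in edgeR. The aged rat 6, with the higher red cell signal, was one of these for Bgn (adjusted p = 0.0534 without it) and Timp1 (adjusted p = 0.0615). The Bgn call was also lost with no filter on low counts, at an adjusted p of 0.0521. None was called in the lists of latency and activation (0 of 13), other receptors of the superfamily (0 of 6), other Smads and partners (0 of 12), Smad turnover (0 of 10) and other ligands (0 of 7). In these lists edgeR gave an unadjusted p under 0.05 for 4, 1, 1, 1 and 3 genes, against 21.2% of all genes tested. Of them 3, 1, 0, 0 and 1 were higher at 24 months, and 1, 0, 1, 1 and 2 were lower.

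**Figure D3:**
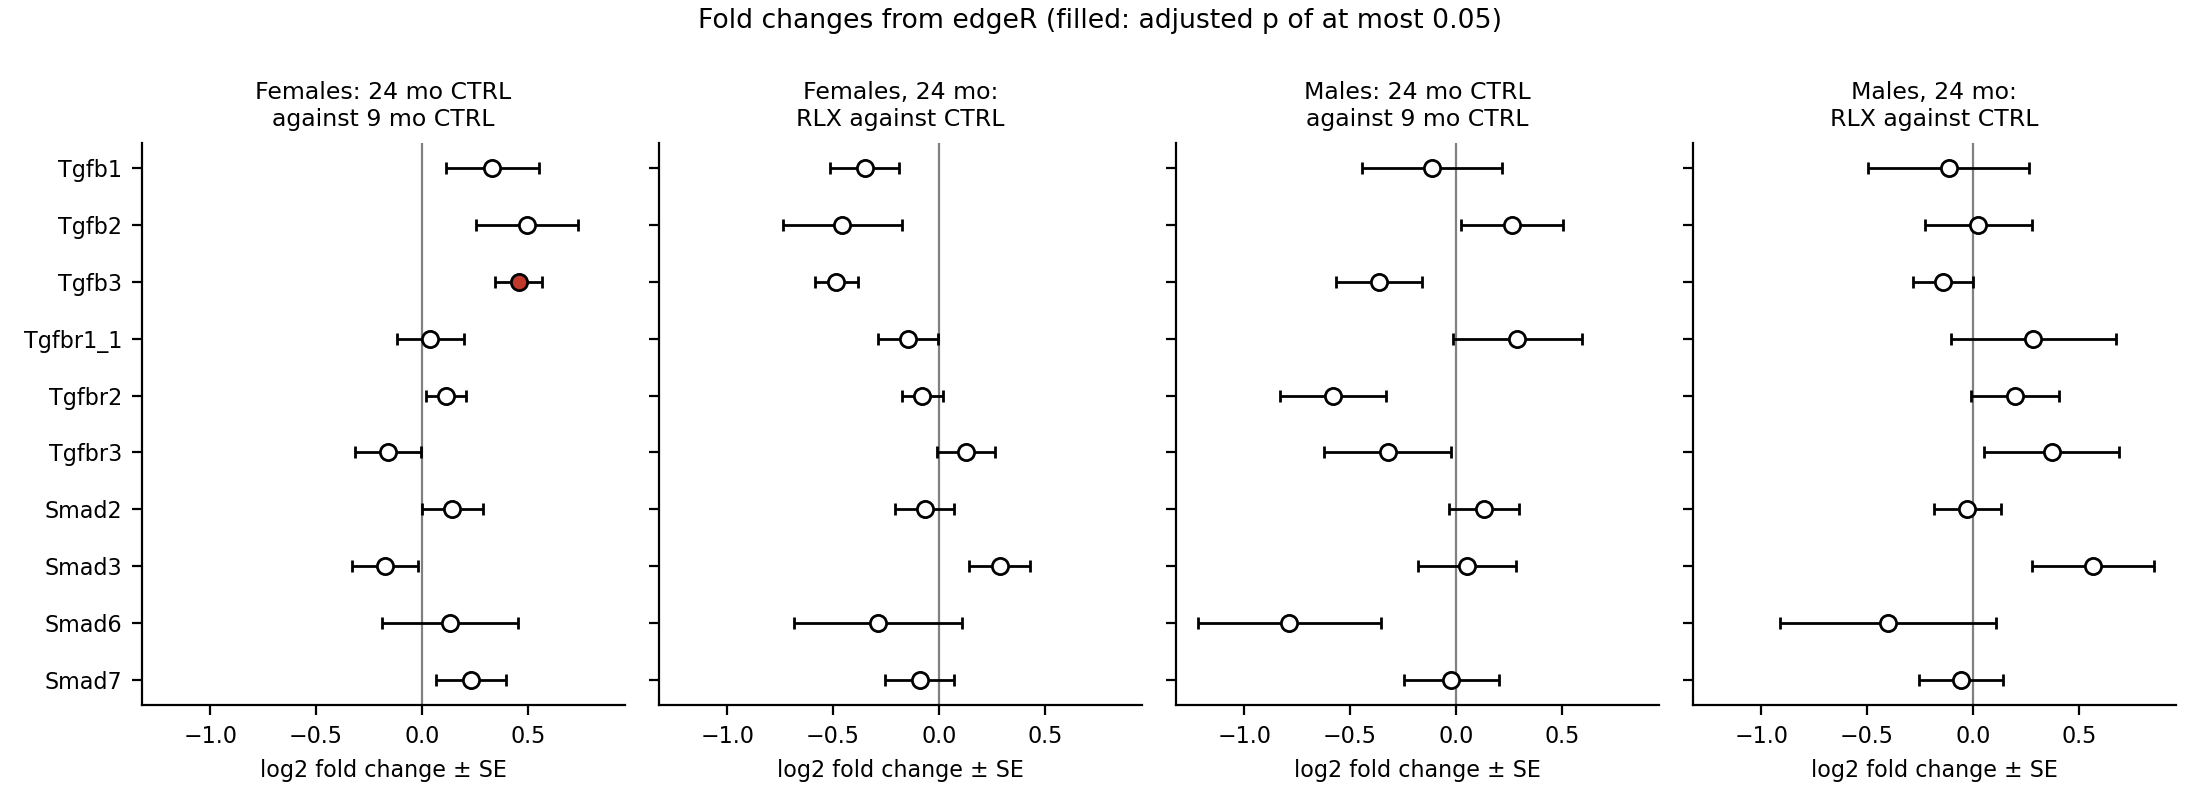
Log2 fold changes of the 10 genes with their SE in the 4 comparisons, filled where the adjusted p was at most 0.05. Tgfb3 in aging females (0.46, SE 0.11) is the single filled point, and in RLX-treated females it lies at -0.48 with the smallest p of the 10 genes.

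With RLX in 24-month females, none of the 10 genes passed the test, and none of the 12591 genes tested did (0%). Tgfb3 came nearest, with 39.4 ± 2.46 CPM in RLX females and 54.6 ± 6.47 CPM in CTRL females (SD, n = 4 each), and it ranked 53 by p among all genes. It was the single gene of the 10 at an unadjusted p under 0.05, against 14.1% of all genes (1772 genes), and the single one whose groups did not overlap, against 7.98% of all genes. DESeq2 and edgeR's exact test, which called 284 and 166 genes here, both called Tgfb3.

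Tgfb3 stood at 40.2, 37.1, 42.5 and 37.8 CPM in the RLX females, against 48.4, 50.3, 57.6 and 62.3 CPM in the CTRL females. All 4 treated rats were below all 4 controls, and they lay within the 36.3 to 46.7 CPM of the 9-month CTRL females. The log2 fold change was -0.48 ± 0.10 (SE) at an adjusted p of 0.0894 in edgeR's quasi-likelihood test, against an adjusted p of 0.00529 in DESeq2 and 0.0135 in the exact test. Leaving out the treated rat with the blood signal (rat 4) gave -0.53, and leaving out any other single rat gave between -0.53 and -0.41. The level in the CTRL rats enters this comparison and the aging comparison alike, so the opposite signs of the pair are not independent of each other.

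**Figure D4:**
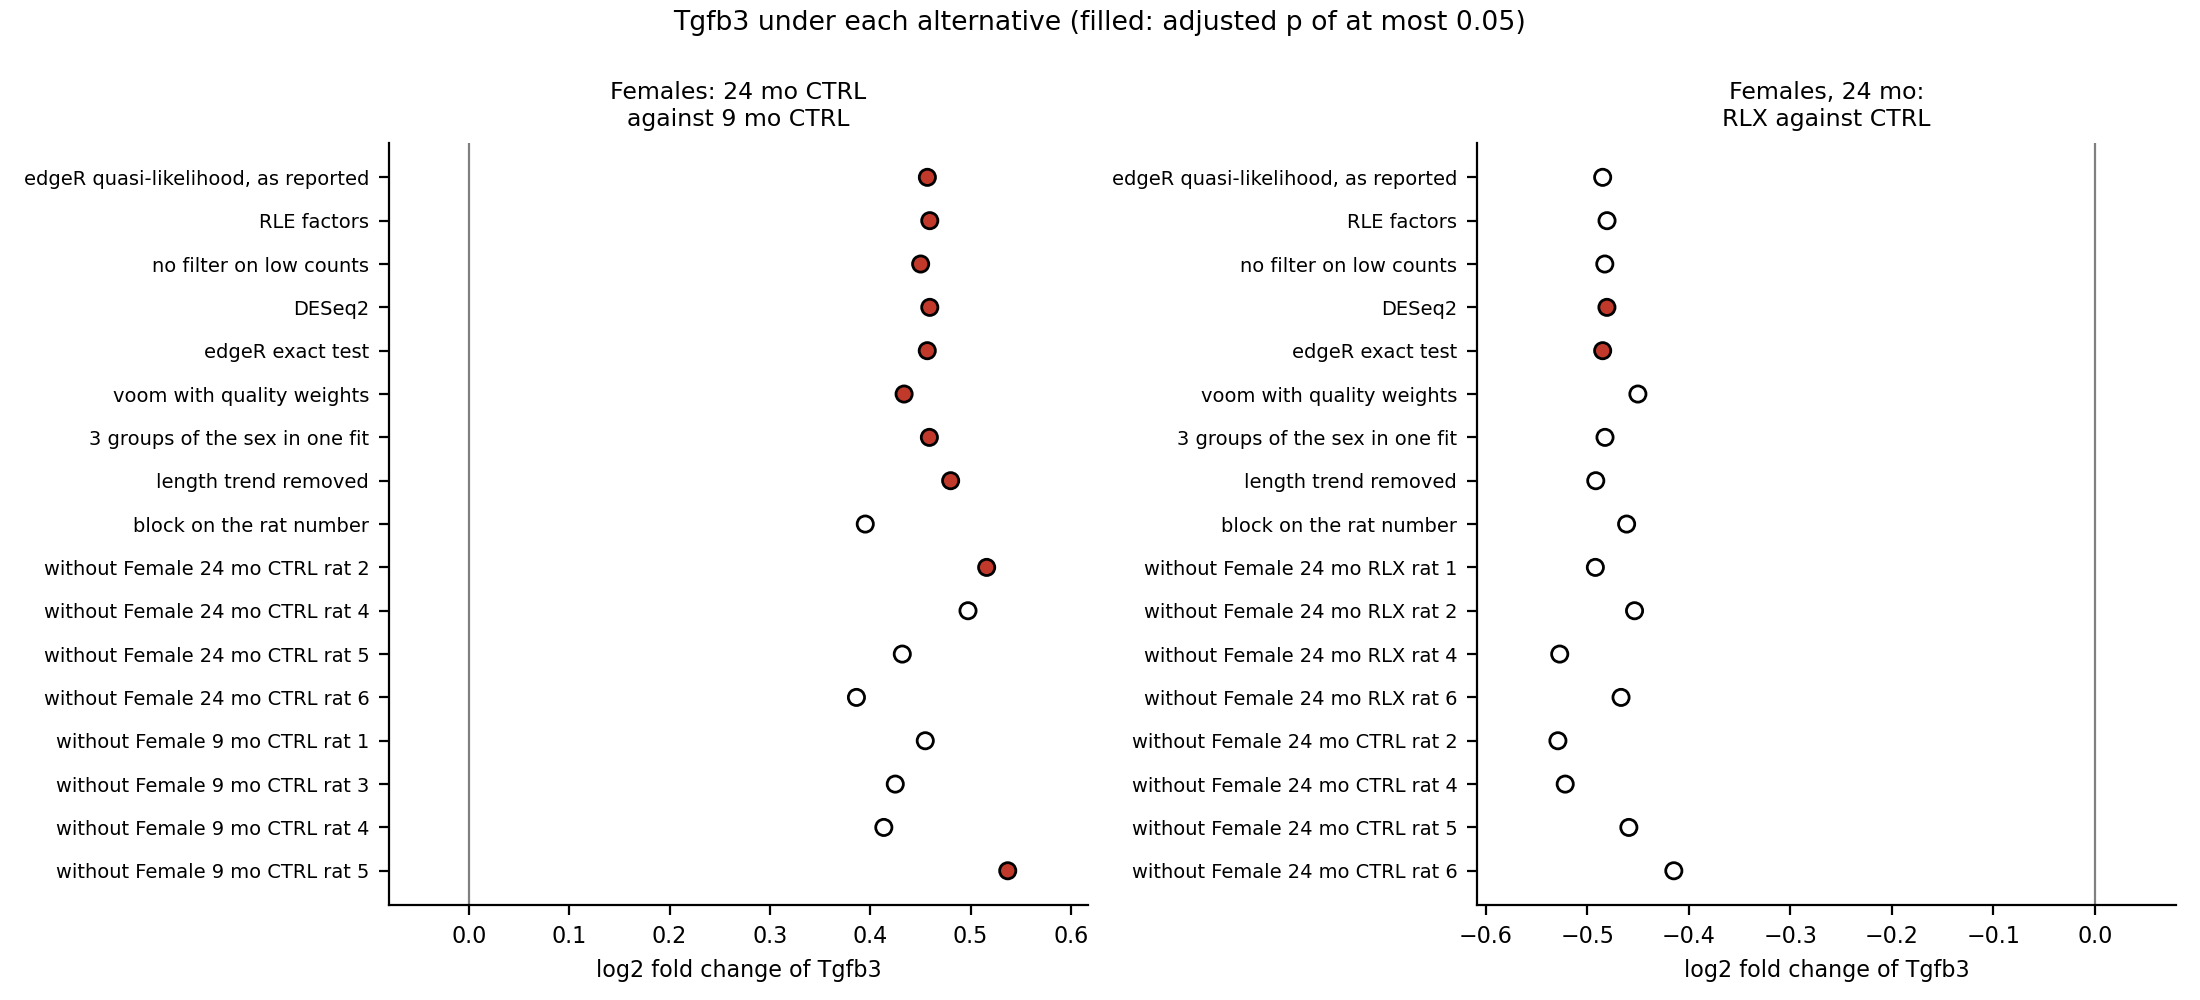
Log2 fold change of Tgfb3 in aging females (left) and with RLX in females (right) under each alternative method and with each rat left out, filled where the adjusted p was at most 0.05. The value stays between 0.39 and 0.54 in aging and between -0.53 and -0.41 with RLX, while the call comes and goes.

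Of the markers of other cell types, 0 of the fibroblast, macrophage, T cell and cardiomyocyte markers passed the test with RLX in females. Fibroblast markers summed to 2057 to 2606 CPM in RLX females, against 2941 to 3912 CPM in CTRL females, with 4 of 6 markers not overlapping (7.98% of all genes). All 6 had negative fold changes, 4 of them at an unadjusted p under 0.05 (14.1% of all genes). Macrophage markers summed to 341 to 612 CPM in RLX females, against 593 to 740 CPM in CTRL females, and T cell markers to 13.8 to 33.0 CPM in RLX females, against 26.5 to 41.7 CPM in CTRL females, so the sums of both lists overlapped. All 6 macrophage markers and all 5 T cell markers had negative fold changes, with 5 and 2 at an unadjusted p under 0.05 (14.1% of all genes). The groups did not overlap for 2 macrophage markers and 0 T cell markers (7.98% of all genes). Cardiomyocyte markers summed to 26501 to 31783 CPM in RLX females, against 21633 to 26239 CPM in CTRL females, with 1 of 6 markers not overlapping. All 6 had positive fold changes, 4 of them at an unadjusted p under 0.05. No marker of these lists was at 0 in either group, and their part in the Tgfb3 difference was not tested.

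Tgfb1 and Tgfb2 overlapped between treated and control females. Tgfb1 had 24.0, 26.8, 24.4 and 31.2 CPM in RLX females, against 38.0, 27.7, 42.9 and 25.8 CPM in CTRL females, with a log2 fold change of -0.35 ± 0.16 (SE) at an adjusted p of 0.359. Tgfb2 had 9.06, 5.24, 6.69 and 9.06 CPM in RLX females, against 6.92, 6.81, 12.6 and 14.5 CPM in CTRL females, with a log2 fold change of -0.46 ± 0.28 (SE) at an adjusted p of 0.5, and of -0.24 without the CTRL rat 6. The treated rats were the more uniform for Tgfb1, at 24.0 to 31.2 CPM.

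Among the receptors, Tgfbr2 was nearly level: it averaged 35.2 ± 1.35 CPM in RLX females and 36.8 ± 4.11 CPM in CTRL females, with a log2 fold change of -0.078 ± 0.096 (SE) at an adjusted p of 0.758. Tgfbr1_1 averaged 29.1 ± 3.69 CPM in RLX females and 31.9 ± 6.25 CPM in CTRL females, with a log2 fold change of -0.15 ± 0.14 (SE) at an adjusted p of 0.674. Tgfbr3 averaged 21.3 ± 2.86 CPM in RLX females and 19.3 ± 3.10 CPM in CTRL females, with a log2 fold change of 0.13 ± 0.14 (SE) at an adjusted p of 0.712. All 3 differences were smaller than the SD of the CTRL rats.

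Smad3 was the gene with the largest positive log2 fold change, at 7.62, 7.04, 7.90 and 8.99 CPM in RLX females, against 6.04, 5.77, 7.65 and 6.12 CPM in CTRL females. One control, rat 5, lay among the treated rats, and the test gave a log2 fold change of 0.29 ± 0.14 (SE) at an adjusted p of 0.394. Smad2, which shares its receptors with Smad3, averaged 17.0 ± 0.604 CPM in RLX females and 17.6 ± 3.87 CPM in CTRL females, with a log2 fold change of -0.067 ± 0.14 (SE) at an adjusted p of 0.868. Smad6 had 1.96, 1.41, 3.55 and 3.22 CPM in RLX females, against 2.48, 3.96, 1.34 and 4.61 CPM in CTRL females, and Smad7 averaged 14.1 ± 3.18 CPM in RLX females and 14.99 ± 2.16 CPM in CTRL females. Neither inhibitory Smad passed in edgeR (adjusted p = 0.791 and 0.843). The log2 fold change of Smad6 was -0.29, and it was -0.50 without the RLX rat 4 and -0.021 without the CTRL rat 6. That of Smad7 was -0.092, and it was -0.23 without the RLX rat 4 and 0.0096 without the CTRL rat 6.

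Of the 83 further pathway genes tested with RLX in females, 0 passed the quasi-likelihood test, and 15 had an unadjusted p under 0.05 (14.1% of all genes), 13 of them lower with RLX. The 27 genes known to respond to TGF-beta had a median log2 fold change of -0.32, against -0.01 for all genes tested, with 6 at an unadjusted p under 0.05. The 8 co-receptors and binders had a median of -0.69, with 2 at an unadjusted p under 0.05. The medians of the other 5 lists lay between -0.07 and 0.17.

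In aging males, none of the 10 genes passed, as none of the 12220 genes tested did in edgeR's quasi-likelihood test (0%; 1045 genes, 8.55%, had an unadjusted p under 0.05, and DESeq2, the exact test and voom called 63, 78 and 73 genes, none of the 10 among them). Tgfbr2 was the one gene of the 10 at an unadjusted p under 0.05. None of the 10 had groups that did not overlap, against 14.2% of all genes.

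Tgfbr2, the receptor that binds the ligand first, had 24.5, 24.8 and 16.3 CPM in 24-month CTRL males, against 31.3, 23.2 and 42.2 CPM in 9-month CTRL males. The young rats spread widely, and the lowest of them was below 2 of the 3 aged rats. The log2 fold change was -0.58 ± 0.25 (SE) at an adjusted p of 0.566 in edgeR, and it was -0.40 without the aged rat 12 and -0.32 without the young rat 4.

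Tgfb3 had 48.0, 45.3 and 40.0 CPM in 24-month CTRL males, against 42.3, 57.2 and 69.5 CPM in 9-month CTRL males. The aged rats were close together and the young rats spread widely, and the test gave a log2 fold change of -0.36 ± 0.20 (SE) at an adjusted p of 0.671. Tgfb1 had 25.0, 23.5 and 51.2 CPM in 24-month CTRL males, against 33.8, 24.6 and 47.0 CPM in 9-month CTRL males, with a log2 fold change of -0.11 ± 0.33 (SE) at an adjusted p of 0.963. Tgfb2 had 12.7, 7.66 and 11.8 CPM in 24-month CTRL males, against 7.53, 9.77 and 8.98 CPM in 9-month CTRL males, with a log2 fold change of 0.26 ± 0.24 (SE) at an adjusted p of 0.841. For Tgfb1 the aged rat 12 alone was high, and without that rat the log2 fold change was -0.55.

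The same rat set the other receptor values. Tgfbr1_1 had 24.1, 18.2 and 46.5 CPM in 24-month CTRL males, against 20.8, 25.3 and 24.9 CPM in 9-month CTRL males, a log2 fold change of 0.29 (SE 0.30) that became -0.18 without rat 12. Tgfbr3 had 21.5, 21.8 and 8.77 CPM in 24-month CTRL males, against 23.6, 20.2 and 20.9 CPM in 9-month CTRL males, a log2 fold change of -0.32 (SE 0.30) that became -0.0072 without it. In that rat Tgfbr3 was at less than the lowest value of the other 20 libraries, 15.02 CPM.

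Smad6 had 1.64, 0.881 and 0.487 CPM in 24-month CTRL males, against 1.95, 1.56 and 1.78 CPM in 9-month CTRL males. One aged rat lay within the young range and the others below it, and the test, on 5 to 25 counts per library, gave a log2 fold change of -0.79 ± 0.43 (SE) at an adjusted p of 0.67. It was -1.31 without the aged rat 8 and -0.51 without the aged rat 12. Smad2 averaged 21.2 ± 0.971 CPM in 24-month CTRL males and 19.0 ± 1.45 CPM in 9-month CTRL males (SD, n = 3 each), with a log2 fold change of 0.13 ± 0.17 (SE) at an adjusted p of 0.896. Smad3 and Smad7 had log2 fold changes of 0.052 (SE 0.23) and -0.023 (SE 0.22). Of the 81 further pathway genes tested, 0 passed in edgeR and 15 had an unadjusted p under 0.05 (8.55% of all genes), each of them lower at 24 months. The 26 genes known to respond to TGF-beta had a median log2 fold change of -0.45, against -0.01 for all genes tested, with 7 at an unadjusted p under 0.05. Fibroblast markers summed to 2945 to 3816 CPM in 24-month CTRL males, against 2614 to 5116 CPM in 9-month CTRL males, and endothelial markers to 269 to 378 CPM in 24-month CTRL males, against 408 to 474 CPM in 9-month CTRL males. Red cell markers summed to 7.76 to 20.5 CPM in 24-month CTRL males, against 55.3 to 126 CPM in 9-month CTRL males. Of the 4 tested, 3 had negative fold changes and 1 a positive one, 3 had groups that did not overlap (14.2% of all genes), and 0 were called. No marker of these lists was at 0 in these groups, and their part in these values was not tested.

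With RLX in 24-month males, none of the 10 genes passed, as none of the 12232 genes tested did in edgeR's quasi-likelihood test (0%). An unadjusted p under 0.05 was reached by 0 of the 10, against 12% of all genes (1464 genes), and 0 of the 10 had groups that did not overlap, against 20.2% of all genes. Without the CTRL rat 12, 2 of the 10 reached that limit in edgeR (1411 genes in all). Under voom 1 did (2399 genes in all), as did 1 without the RLX rat 3 (971 genes in all). DESeq2, the exact test and voom called 121, 18 and 208 genes, with none of the 10 among them.

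Smad3 showed the largest positive log2 fold change here too, at 7.91, 6.75 and 13.6 CPM in RLX males, against 6.18, 5.45 and 8.09 CPM in CTRL males. It rested on 1 treated rat: the log2 fold change was 0.57 ± 0.29 (SE) at an adjusted p of 0.479 in edgeR and 0.20 without rat 7. Over single rats left out in turn it ran from 0.20 to 0.76. Tgfb3 had 39.9, 40.1 and 38.4 CPM in RLX males, against 48.0, 45.3 and 40.0 CPM in CTRL males, with a log2 fold change of -0.14 ± 0.14 (SE) at an adjusted p of 0.714. The RLX males were the tightest group of all for Tgfb3, with an SD of 0.901 CPM, and 1 control lay among them. Cardiomyocyte markers summed to 24135 to 26022 CPM in RLX males, against 30034 to 31663 CPM in CTRL males, with 5 of 6 markers not overlapping (20.2% of all genes). Of the 6, 5 had negative fold changes and 1 had a positive log2 fold change of 0.47. At an unadjusted p under 0.05 in edgeR, 3 were lower and 1 was higher (12% of all genes). Markers of mural cells, the pericytes and smooth muscle of vessels, summed to 1148 to 1519 CPM in RLX males, against 1729 to 2075 CPM in CTRL males, although 5 of the 6 had positive fold changes. This list holds Des (desmin), which cardiomyocytes express as well. None of these 12 markers passed or was at 0, and their part in these values was not tested.

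Tgfb1 had 18.5, 27.8 and 43.1 CPM in RLX males, against 25.0, 23.5 and 51.2 CPM in CTRL males, and Tgfb2 had 12.8, 11.0 and 8.19 CPM in RLX males, against 12.7, 7.66 and 11.8 CPM in CTRL males. Both overlapped over most of their range, with log2 fold changes of -0.12 (SE 0.38) and 0.025 (SE 0.25). The 51.2 CPM of Tgfb1 was that of the CTRL rat 12. Over single rats left out in turn, the log2 fold change of Tgfb1 ran from -0.47 to 0.34 and that of Tgfb2 from -0.17 to 0.19. The receptors had log2 fold changes of 0.28 (SE 0.39) for Tgfbr1_1, 0.20 (SE 0.21) for Tgfbr2 and 0.37 (SE 0.32) for Tgfbr3. Without the CTRL rat 12 these became 0.76, 0.036 and 0.067. Smad2, Smad6 and Smad7 had log2 fold changes of -0.028 (SE 0.16), -0.40 (SE 0.51) and -0.056 (SE 0.20). That of Smad6 ran from -0.68 to 0.14 over single rats left out, and that of Smad7 from -0.21 to 0.058. Of the 80 further pathway genes tested, 0 passed in edgeR and 12 had an unadjusted p under 0.05 (12% of all genes), 7 of them higher with RLX, and the genes known to respond to TGF-beta had a median of -0.23, against 0.01 for all genes tested.

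An interaction term, female minus male, tested whether the sexes changed differently. For aging, 3.02% of the 13090 genes tested passed, and 0 of the 10 did. Tgfb3 came nearest with a log2 difference of 0.80 ± 0.22 (SE) at an adjusted p of 0.0624 in edgeR, made of 0.46 in females and -0.36 in males. DESeq2 gave it an adjusted p of 0.0198, and edgeR passed it without the female 9-month rat 5 (adjusted p = 0.0461) or the male 9-month rat 2 (adjusted p = 0.0125). With any other single rat left out it did not pass in edgeR. Over all rats left out in turn its log2 difference ran from 0.615 to 0.964, with an adjusted p of up to 0.172. Tgfbr2 followed with a log2 difference of 0.67 ± 0.25 (SE) at an adjusted p of 0.154, made of 0.11 in females and -0.58 in males. Only Tgfb3 and Tgfbr2 of the 10 had an unadjusted p under 0.05 in edgeR, against 19.9% of all genes. The other 8 differences lay between -0.27 and 0.90, with SE of 0.21 to 0.56. For RLX, 0% of the 13017 genes tested passed, with 0 of the 10 at an unadjusted p under 0.05 (14.1% of all genes), and the 10 differences lay between -0.46 and 0.14, that of Tgfb3 being -0.32 ± 0.16 (SE) at an adjusted p of 0.370.

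Smad6 levels were lower in the male libraries as a whole. Males had 0.482 to 1.95 CPM over 9 libraries, and females had 1.34 to 4.61 CPM over 12 libraries, with 2 of the females inside the male range. Within the males the 9-month CTRL rats had 1.56 to 1.95 CPM, with 1 aged CTRL rat among them and the other 5 aged males below. This difference between the sexes was not tested, since sex and sequencing run cannot be told apart.

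The balance between the genes was taken within each rat from RPKM and is given as a description. Tgfb1 and Tgfb3 together made up nearly all of the ligand signal: Tgfb1 held a mean of 49.9% (SD 7.47, range 38.0 to 64.5%) of the summed RPKM of the 3 ligands over 21 libraries, Tgfb3 42.3% (SD 6.48, range 28.0 to 51.8%) and Tgfb2 7.74% (SD 2.21, range 5.06 to 13.8%). The share of Tgfb3 was 42.0 ± 3.88% in RLX females, 44.3 ± 5.90% in 24-month CTRL females and 42.7 ± 7.44% in 9-month CTRL females (SD, n = 4 each), and the 3 groups overlapped.

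Tgfbr2 exceeded Tgfbr1_1 in RPKM in all libraries but 1, with a ratio of 2.33 to 3.80 over the 12 females. In males the ratio was 1.25 to 3.05 in RLX rats, 0.949 to 3.70 in 24-month CTRL rats and 2.49 to 4.61 in 9-month CTRL rats, rat 12 being the one below 1. The inhibitory Smads held 0.625 ± 0.166 of the RPKM of Smad2 and Smad3 in RLX females, 0.745 ± 0.279 in 24-month CTRL females and 0.656 ± 0.110 in 9-month CTRL females. In males the ratio was 0.388 ± 0.118 in RLX rats, 0.428 ± 0.0200 in 24-month CTRL rats and 0.540 ± 0.131 in 9-month CTRL rats. The female and male values overlapped, and the groups within each sex overlapped as well. The ratio of Smad2 to Smad3 RPKM was 3.28 to 4.25 in RLX females, 4.33 to 5.36 in 24-month CTRL females and 3.47 to 5.24 in 9-month CTRL females, so the RLX and 24-month CTRL females did not overlap, by a narrow margin. In males this ratio overlapped, at 2.74 to 5.78 in RLX rats, 4.65 to 6.60 in 24-month CTRL rats and 4.70 to 6.01 in 9-month CTRL rats.

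**Figure D5:**
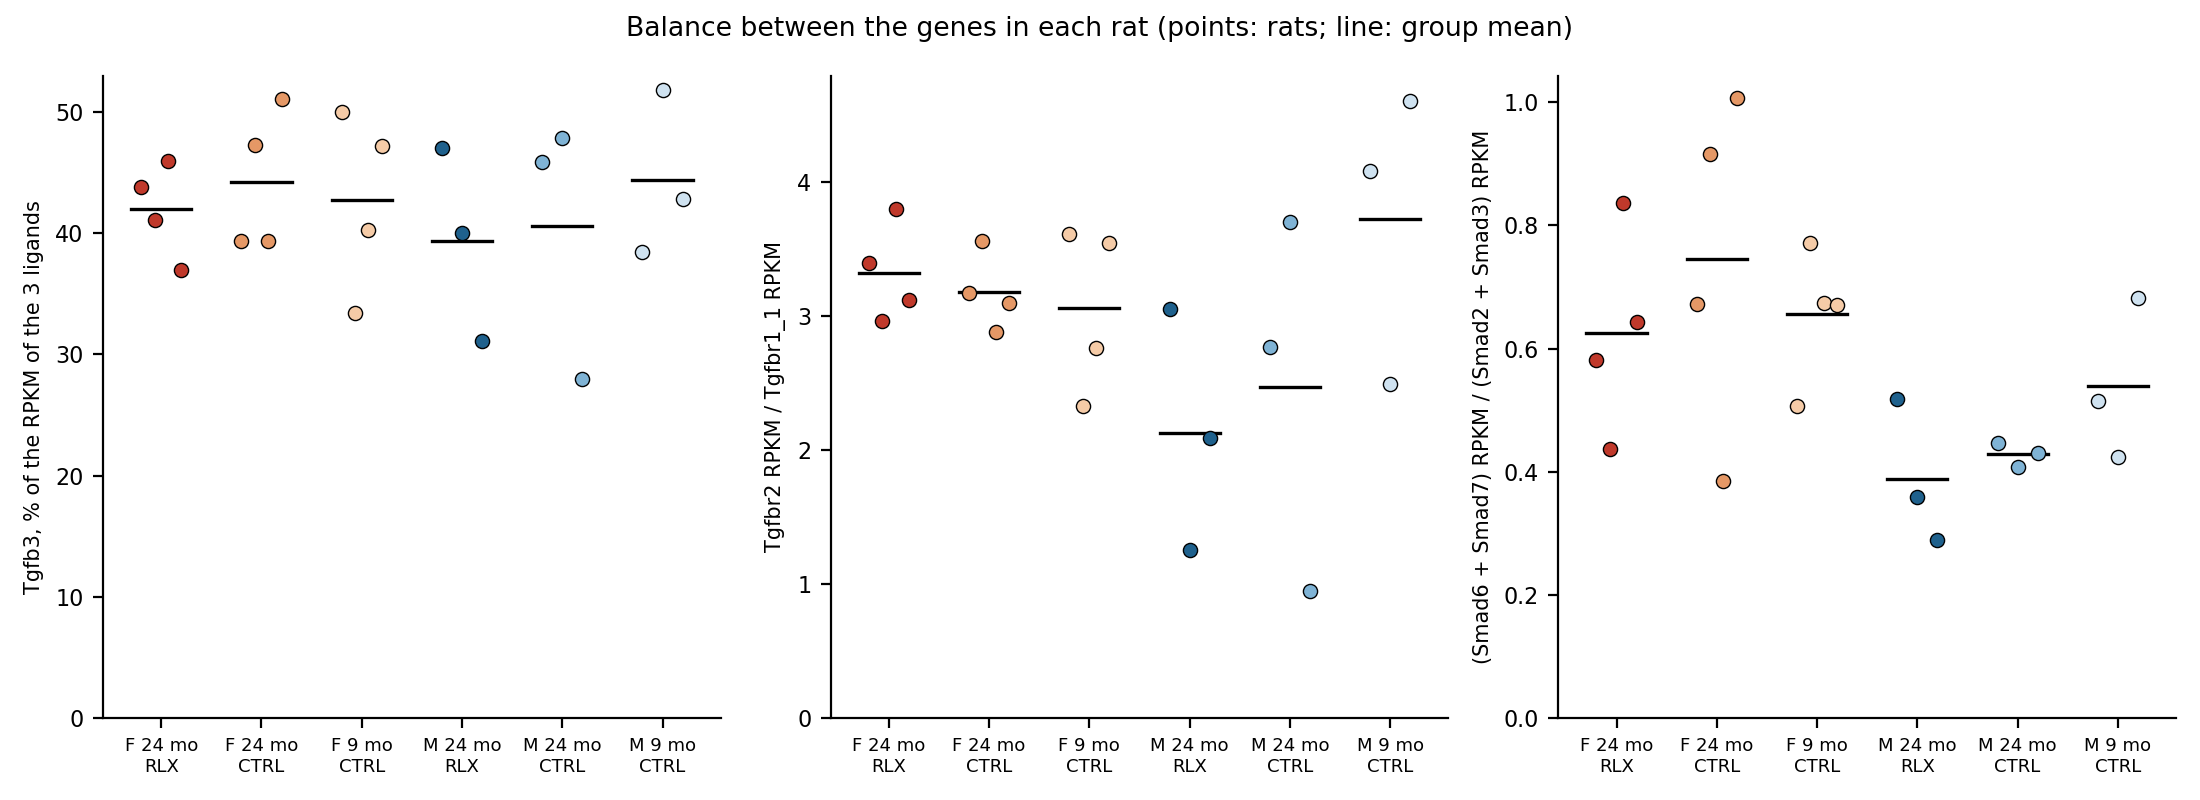
Share of Tgfb3 in the ligand RPKM, ratio of Tgfbr2 to Tgfbr1_1 RPKM and ratio of inhibitory to receptor-regulated Smad RPKM in each rat, with group means as lines. The Tgfb3 share stays between 28.0 and 51.8% in all 21 rats, and the receptor ratio falls below 1 in a single male.

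For each gene, the gene with the most similar log2 CPM over the 21 libraries was found among 13228 genes. Tgfb3 was followed most closely by Mmp23, a membrane-bound metalloproteinase (Pearson r = 0.92, Spearman rho = 0.92), and the likeness was there within the 12 females (r = 0.97) and the 9 males (r = 0.87). Tgfb1 was followed by Nfkb1, a subunit of NF-kappa-B (r = 0.91, and 0.91 in females and 0.94 in males). Tgfbr2 was followed by Hdac7, a class II histone deacetylase (r = 0.93), but the likeness came from the males (r = 0.93), since r was 0.16 in females. Tgfbr3 was followed by Dag1, dystroglycan (r = 0.91), and Tgfb2 by Pla2g4a, a cytosolic phospholipase A2 (r = 0.84). Tgfbr1_1 was followed by Col4a3bp, a ceramide transporter (r = 0.89), Smad2 by Wac (r = 0.85), Smad3 by Stard13 (r = 0.78), Smad6 by Gas1 (r = 0.88) and Smad7 by Ednrb, an endothelin receptor (r = 0.74). These are the highest of many correlations over libraries that also differ in sex, age and treatment, and they are given without a p.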

How the data were processed

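Total RNA of 21 left ventricles was sequenced as stranded paired-end libraries after ribosomal removal. Mapping was done by the authors in Biomedical Genomics Workbench 3.0.1, on a rat genome of a build that the sources used here do not name. The deposited counts are the authors' total counts per gene, not normalized, and the deposited RPKM are the same counts over gene length and library total. The tables' own CPM and TPM were left out, since CPM was scaled within each table. Of the 21 libraries, 7 occur in 2 of the 4 tables, with 0 counts differing. The titles name each rat as a sample of its own, and pairs of libraries of a group differed beyond counting noise.

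Counts were tested in R 4.3.3 with edgeR 4.0.16 (filterByExpr, TMM, robust quasi-likelihood fit and F test) on the 2 groups of each comparison, with Benjamini-Hochberg adjustment over all genes tested. Adjusted p-values are from this test unless another tool is named. The SE is the log2 fold change over the square root of F, and log2 CPM used a prior count of 2. The pipeline was tested on simulated data. The genes and lists were chosen with earlier results of these data known. The text names the 10 genes, up to 3 genes with the smallest p of each pathway list and comparison at an adjusted p of at most 0.05, and for each gene its most correlated partner. The 7 pathway lists hold 98 symbols, 94 of them in the tables. Alternatives were RLE factors, no filter, DESeq2 1.42.0, the exact test of edgeR, limma 3.58.1 voom with quality weights, 3 groups in one fit, a length trend, the rat number as a block, the study's limits and each rat left out.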

Additional observations from a re-analysis of the deposited data

How the results depend on the processing

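Of the 40 fold changes of the 10 genes, 25 kept their direction under every alternative and 15 did not in at least 1, among them no value of Tgfb3. DESeq2 called 1206 genes in aging females (Tgfb3 among them, 1 of 10), 284 in RLX females (Tgfb3 among them, 1 of 10), 63 in aging males and 121 in RLX males. It called 884 genes for aging by sex (Tgfb3 among them, 1 of 10) and 383 for RLX by sex. In aging females Tgfb3 was also called with RLE factors, no filter, the exact test, voom, 3 groups in one fit and the length trend removed. The exact test called 166 genes with RLX in females (1 of 10), 78 in male aging and 18 in RLX males. Without the filter 36 genes were called with RLX in females and 20 in male aging, voom called 73 in male aging and 208 in RLX males, and 3 groups in one fit called 28 with RLX in females and 13 in male aging. At an adjusted p of at most 0.1, 1 of 10 was called with RLX in females (Tgfb3, which ranked 53 by p among 12591 genes). The share of all genes at that limit was not counted. In female aging, 0 of 10 reached the study's limits. With the rat number as a replicate block, 0 genes and 0 of 10 were called in female aging (771 at an unadjusted p under 0.05) and 18 genes with RLX in females, and Smad6 in female aging turned to -0.32 and Smad2 with RLX in females to 0.072. Under that block Tgfb3 in female aging had a log2 fold change of 0.395 at an adjusted p of 0.843. The titles do not state that the numbers pair rats. The deviations of same-numbered females correlated between -0.185 and 0.156, which cannot settle it, since differently numbered rats were not set beside them.

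Under voom the log2 fold change turned to -0.026 for Smad6 in female aging, to -0.023 for Tgfbr1_1 and -0.079 for Smad3 in male aging, and to 0.12 for Smad7 with RLX in males. With the length trend removed it turned to 0.044 for Smad7 in male aging, and to -0.055 for Tgfb2 and -0.013 for Tgfbr1_1 with RLX in males.

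With each rat left out in turn, female aging gave 121 to 617 genes called and 0 to 1 of the 10, and ranges of -0.13 to 0.40 for Smad6, -0.085 to 0.18 for Tgfbr1_1 and -0.014 to 0.24 for Smad2. RLX in females gave 0 to 2 genes, with -0.23 to 0.025 for Smad7 and -0.16 to 0.092 for Smad2. Male aging gave 0 to 3 genes, with -0.55 to 0.17 for Tgfb1, -0.19 to 0.20 for Smad7, -0.18 to 0.55 for Tgfbr1_1 and -0.11 to 0.18 for Smad3. RLX in males gave 0 to 1 genes, with -0.47 to 0.34 for Tgfb1, -0.17 to 0.19 for Tgfb2, -0.087 to 0.060 for Smad2, -0.21 to 0.058 for Smad7 and -0.68 to 0.14 for Smad6. Aging by sex gave 25 to 890 genes and 0 to 1 of the 10 (lowest without the male 9-month rat 4, highest without the male 9-month rat 2), and RLX by sex gave 0 to 221 (highest without the male RLX rat 7). The cause of these shifts was not tested. Smad6 rests on 5 to 73 counts per library, and 3 rats against 3 limit what the male comparisons can show.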
